A study of Danio rerio with 8 samples.

Results

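The 8 troponin T and troponin C genes chosen from the deposited zebrafish table were followed across 4 groups of trunk tissue. They are the symbols that start with tnnt or tnnc, without the cardiac gene tnnt2a, and they were taken from 13765 symbols in the table. The 8 genes are the troponin T genes tnnt3a, tnnt3b, tnnt1, tnnt2d and tnnt2e and the troponin C genes tnnc2, tnnc1b and tnnc1a. They hold 12 rows, and the row with the highest mean stands for each gene.

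Polyadenylated RNA came from embryos aged 38 to 40 hours after fertilisation, with heads and yolks removed. Mutants (MUT) carried 2 copies of the p162 allele of the forkhead gene foxc1a. Siblings (SIB) are given as p162 heterozygotes in the sample labels, although the design text calls the controls wild type. Anterior pieces (AS) held segments 1 to 6, and posterior pieces (PS) held segments 7 to about 12. The groups MUT_AS, SIB_AS, MUT_PS and SIB_PS hold 2 libraries each. Their titles carry either no number, here replicate 1, or the number 3, here replicate 3. All groups therefore carry at least 1 copy of the p162 allele if the labels hold. Nothing in the labels says that replicates came from separate clutches, so p-values measure only the spread between these libraries.

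Troponin is the calcium switch of the thin filament in striated muscle. Troponin C binds calcium, troponin I blocks contraction at rest, and troponin T ties both to tropomyosin. Fast and slow fibres use different forms of each subunit. In the zebrafish trunk the fast fibres lie deep and make up most of the myotome, and most slow fibres form a superficial layer. The genes tnnt3a, tnnt3b and tnnc2 are taken here as fast forms and tnnt1 and tnnc1b as slow forms. The gene tnnc1a is the form shared with heart, and tnnt2d and tnnt2e were given no class.

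The symbols of 2 of these rows differ in a later RefSeq annotation, GRCz12tu. The row named tnnt1 belongs there to tnnt2c, and the row named tnnc2 belongs to tnnc2.2. The transcript that GRCz12tu calls tnnt1 stands in the table as zgc:193865. It is no member and was too low to be tested, with 3.57 and 0.905 RPKM in MUT_AS replicates 1 and 3, 0.857 and 1.36 in SIB_AS, 0.152 and 0.518 in MUT_PS and 0.241 and 0.204 in SIB_PS. RPKM are reads scaled to the length of the transcript and the number of mapped reads, so levels can be set side by side between genes. The names of the deposited table are kept below. The slow class of tnnt1, and each ratio of fast to slow troponin T, rests on the name in the table, and its relatives tnnt2d and tnnt2e have no class.

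The foxc1a transcript itself stood at 19.3 and 16.3 RPKM in MUT_AS replicates 1 and 3, 18.1 and 16.3 in SIB_AS, 9.02 and 7.74 in MUT_PS and 7.74 and 7.32 in SIB_PS, so its level does not tell the genotypes apart. The MUT_AS libraries were the least alike. A value of 0 was listed for 17.5% of all transcripts in MUT_AS replicate 3, while the share ran from 4.59% to 8.01% over the remaining 7 libraries. The 1st percentile of its nonzero values was 0.316 RPKM, while it ran from 0.00961 to 0.0506 RPKM in the others. The standard deviation between replicates over all tested transcripts was 0.363 in MUT_AS, 0.181 in SIB_AS, 0.196 in MUT_PS and 0.185 in SIB_PS on the log2 scale. Tissue pieces are mixtures, so fewer fibres of a type and less RNA per fibre cannot be told apart.

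The 3 fast forms were the most abundant members in every library. tnnt3a, a fast troponin T, stood at 1218 and 1052 RPKM in MUT_AS replicates 1 and 3, 1549 and 1682 in SIB_AS, 3899 and 3293 in MUT_PS and 3758 and 4301 in SIB_PS. tnnt3b, its paralog, stood at 1045 and 931 RPKM in MUT_AS, 1430 and 1723 in SIB_AS, 2776 and 2619 in MUT_PS and 3061 and 3880 in SIB_PS. tnnc2, the fast troponin C, stood at 1019 and 1113 RPKM in MUT_AS, 1396 and 1832 in SIB_AS, 3565 and 3380 in MUT_PS and 3457 and 4090 in SIB_PS. For each of the 3 genes both MUT_AS libraries were the lowest of the 8. In PS, tnnt3b was also lower in both mutant libraries than in either sibling library, while the ranges of tnnt3a and tnnc2 overlapped. Of all tested transcripts, 11.7% lay lower in mutants without overlap in AS and 8.93% in PS. Within SIB_AS and SIB_PS the levels of the 3 genes overlapped each other. In both mutant groups tnnt3b lay below tnnt3a, by a narrow margin in MUT_AS, and in MUT_PS it also lay below tnnc2. A second row of tnnt3b was left out here. It stood at 923 and 820 RPKM in MUT_AS, 1252 and 1510 in SIB_AS, 2446 and 2305 in MUT_PS and 2695 and 3417 in SIB_PS. Per the design text each read went to 1 transcript, but how reads that match both rows were assigned is not stated. Whether the values of both rows add up is therefore unknown. If they do, tnnt3b is above tnnt3a in every library, so their order holds for the chosen row only.

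The slow troponin C and tnnt2d came next in level. tnnc1b stood at 227 and 198 RPKM in MUT_AS, 155 and 147 in SIB_AS, 546 and 468 in MUT_PS and 426 and 382 in SIB_PS. tnnt2d, a zebrafish paralog of the cardiac troponin T gene, stood at 233 and 181 RPKM in MUT_AS, 147 and 153 in SIB_AS, 439 and 392 in MUT_PS and 332 and 389 in SIB_PS. In both genes every mutant library was above both sibling libraries of its region, by a narrow margin for tnnt2d in PS. Of all tested transcripts, 27% lay higher in mutants without overlap in AS and 23.8% in PS. The levels of tnnc1b and tnnt2d overlapped each other in MUT_AS, SIB_AS and SIB_PS, and tnnc1b was the higher in MUT_PS.

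The remaining troponin T forms were lower. tnnt1 stood at 51.2 and 36.2 RPKM in MUT_AS, 59.1 and 47.2 in SIB_AS, 233 and 125 in MUT_PS and 199 and 126 in SIB_PS. tnnt2e stood at 12.9 and 21.4 RPKM in MUT_AS, 11.6 and 19.0 in SIB_AS, 49.7 and 57.5 in MUT_PS and 45.7 and 53.7 in SIB_PS. Mutant and sibling libraries overlapped in both regions for both genes. In all 4 groups replicate 1 held more tnnt1 and less tnnt2e than replicate 3. The 3 rows of tnnt2e are isoforms with nearly equal values, with means of 33.9, 33.7 and 33.0 RPKM over the 8 libraries, and they are not independent.

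**Figure D1:**
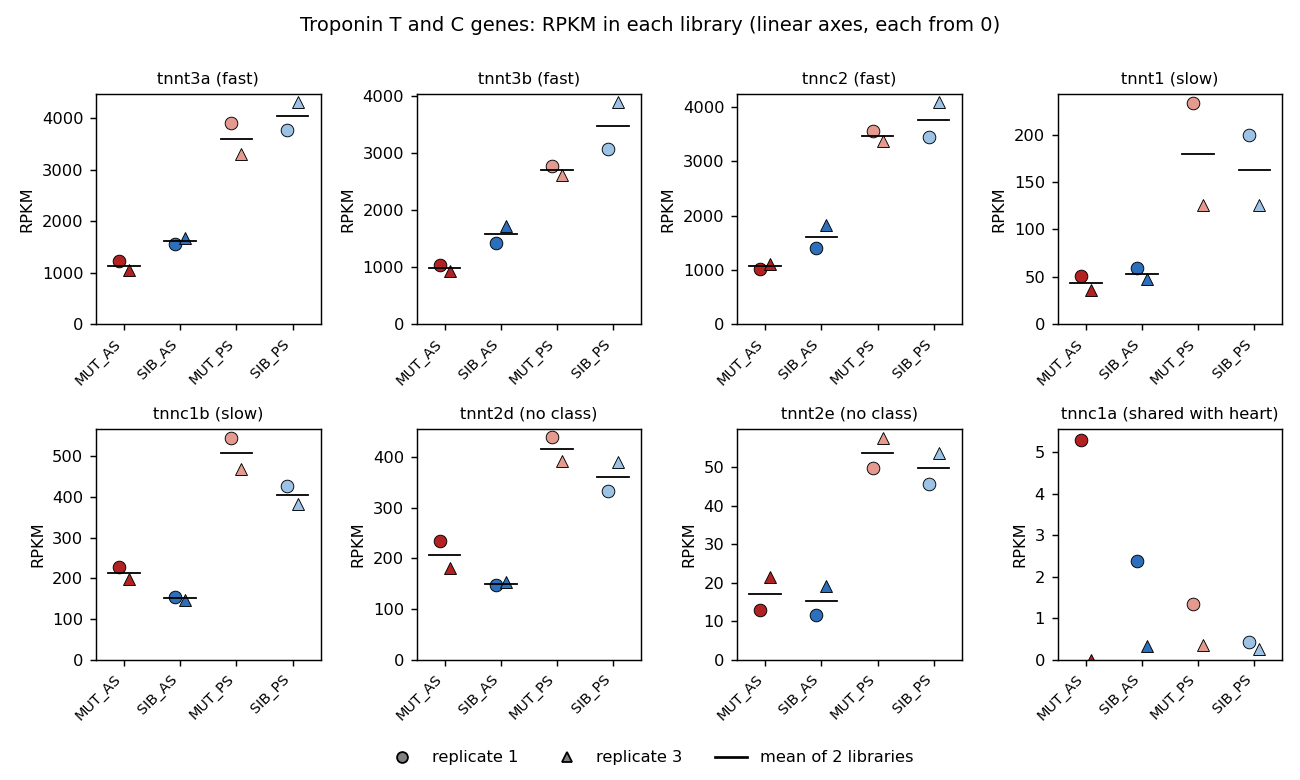
RPKM of the 8 troponin T and C genes on linear axes, 1 panel per gene, with a circle for replicate 1, a triangle for replicate 3 and a line at the mean of the 2 libraries of a group (no line for tnnc1a, which is listed at 0 in 1 library). The fast forms tnnt3a, tnnt3b and tnnc2 are lowest in MUT_AS, while tnnc1b and tnnt2d are lowest in SIB_AS.

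The first question was whether these genes differ with the foxc1a genotype in the anterior segments, the route of the fin nerves. In MUT_AS against SIB_AS, the 3 fast forms had lower values, and tnnc1b and tnnt2d had higher values, but 0 of the 8 genes passed the test. The test was limma on log2(RPKM + 1) over 10889 transcripts, with an adjusted p under 0.05 called, and it called 0.0459% of all transcripts. The log2 difference was -0.67 for tnnt3b (SE 0.17, 95% interval -1.06 to -0.28, limma adjusted p = 0.275). For tnnc2 it was -0.59 (95% interval -0.98 to -0.20, limma adjusted p = 0.309). For tnnt3a it was -0.51 (95% interval -0.88 to -0.15, limma adjusted p = 0.325). In mean RPKM, MUT_AS held 0.627 of the SIB_AS level for tnnt3b, 0.660 for tnnc2 and 0.703 for tnnt3a. The intervals use a spread shared by all groups, although the replicates of MUT_AS differed most. With a weight per group the limma adjusted p of the fast forms ran from 0.728 to 0.813. In a fit of the AS groups alone it was 0.756.

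The differences with the other sign were of like size. tnnc1b differed by 0.49 (SE 0.16, 95% interval 0.13 to 0.84, limma adjusted p = 0.331) and tnnt2d by 0.45 (95% interval 0.07 to 0.84, limma adjusted p = 0.376). MUT_AS held 1.41 times the SIB_AS mean RPKM of tnnc1b and 1.38 times that of tnnt2d. The gene tnnt1, slow only by its name in the table, did not share this sign. Its difference was -0.29 with a 95% interval of -0.98 to 0.41, and that of tnnt2e was 0.15 with an interval of -0.45 to 0.75. An unadjusted p under 0.05 was reached by 5 of the 8 genes, against 11.7% of all tested transcripts, and libraries of the 2 groups did not overlap in 5 of the 8, against 38.7%. Of these 5, the fast forms were the 3 that lay lower, against 11.7% of all transcripts, and tnnc1b and tnnt2d were the 2 that lay higher, against 27%. Without MUT_AS replicate 1, which leaves replicate 3 alone in its group, tnnt3b (adjusted p = 0.0220 in limma) and tnnt3a (adjusted p = 0.0340) passed, in a fit that called 1105 transcripts instead of 5.

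In PS the same genes leaned the same way with smaller differences. Again 0 of the 8 genes passed in MUT_PS against SIB_PS, where limma called 0% of all transcripts, and 0 of the 8 had an unadjusted p under 0.05, against 2.67% of all transcripts. The log2 difference was -0.35 for tnnt3b (95% interval -0.74 to 0.03), -0.17 for tnnt3a (-0.53 to 0.20) and -0.12 for tnnc2 (-0.51 to 0.28). It was 0.33 for tnnc1b (95% interval -0.03 to 0.68) and 0.21 for tnnt2d (-0.18 to 0.59). tnnt1 stood at 0.11 (-0.59 to 0.80) and tnnt2e at 0.11 (-0.49 to 0.70). Libraries did not overlap in 3 of the 8 genes (tnnt3b, tnnc1b and tnnt2d), against 32.7% of all transcripts. tnnt3b was the 1 that lay lower, against 8.93%, and the other two lay higher, against 23.8%.

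**Figure D2:**
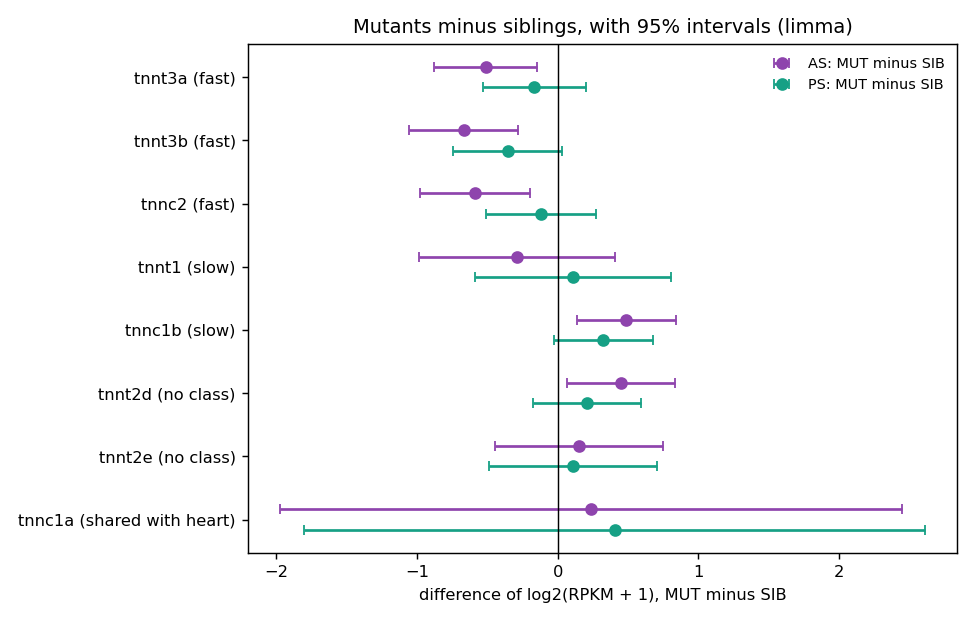
Difference of log2(RPKM + 1), MUT minus SIB, for each gene in AS and in PS, with 95% intervals from limma. In AS the 3 fast forms lie between -0.67 and -0.51 and tnnc1b and tnnt2d at 0.49 and 0.45; in PS the same genes lie nearer to 0.

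With both regions averaged, 4 mutant against 4 sibling libraries, the result was again 0 of 8 genes passed, where limma called 0.0827% of all transcripts. The log2 differences were -0.51 for tnnt3b (SE 0.12, 95% interval -0.79 to -0.24, limma adjusted p = 0.223), -0.35 for tnnc2 and -0.34 for tnnt3a. tnnc1b stood at 0.41 (SE 0.11, 95% interval 0.16 to 0.66, limma adjusted p = 0.270) and tnnt2d at 0.33. tnnt1 stood at -0.09 (95% interval -0.58 to 0.40) and tnnt2e at 0.13 (-0.29 to 0.55). An unadjusted p under 0.05 was again reached by 5 of the 8, against 11.1% of all transcripts. The fast forms tnnt3b (adjusted p = 0.0175 in limma) and tnnt3a (0.0464) passed without MUT_AS replicate 1, in a fit with 720 calls instead of 9.

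The genotype difference was not shown to depend on region. For the interaction of genotype and region 0 of 8 genes passed in limma, which called 0% of all transcripts, and 0 of 8 had an unadjusted p under 0.05 (2.74% of all). The estimate was -0.47 for tnnc2 (95% interval -1.02 to 0.08), -0.35 for tnnt3a (-0.86 to 0.17) and -0.32 for tnnt3b (-0.86 to 0.23). For tnnc1b it was 0.16 (95% interval -0.34 to 0.66), and for tnnt2d it was 0.25 (-0.30 to 0.79). tnnt1 stood at -0.40 (95% interval -1.38 to 0.59) and tnnt2e at 0.04 (-0.80 to 0.89).

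Shares within each family compare forms inside 1 library and so do not depend on how much troponin RNA it holds in all, though they still depend on its mix of fibres. They were chosen with the levels known and carry no test. Like the ratios below, they use 1 row per gene, so the second row of tnnt3b is not counted. The slow form tnnc1b held 18.2% and 15.1% of troponin C RPKM in MUT_AS and 9.98% and 7.41% in SIB_AS. In PS it held 13.3% and 12.2% in MUT and 11.0% and 8.54% in SIB. Mutant libraries lay above sibling libraries in each region, with the wider gap in AS, and tnnc2 held nearly all the rest.

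In the troponin T family the share of tnnt2d differed most by ratio between the genotypes. It was 9.10% and 8.17% of troponin T RPKM in MUT_AS and 4.60% and 4.22% in SIB_AS, and 5.94% and 6.05% in MUT_PS against 4.49% and 4.45% in SIB_PS. The 2 sibling groups were close to each other and the mutant groups were not. tnnt1 held 2.00% and 1.63% in MUT_AS, 1.85% and 1.3% in SIB_AS, 3.15% and 1.93% in MUT_PS and 2.69% and 1.44% in SIB_PS, with overlap between the genotypes in both regions. tnnt3a held 46.4% to 52.7% in all 8 libraries. tnnt3b held 40.8% and 41.9% in MUT_AS against 44.7% and 47.5% in SIB_AS, and 37.5% and 40.4% in MUT_PS against 41.4% and 44.3% in SIB_PS.

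**Figure D3:**
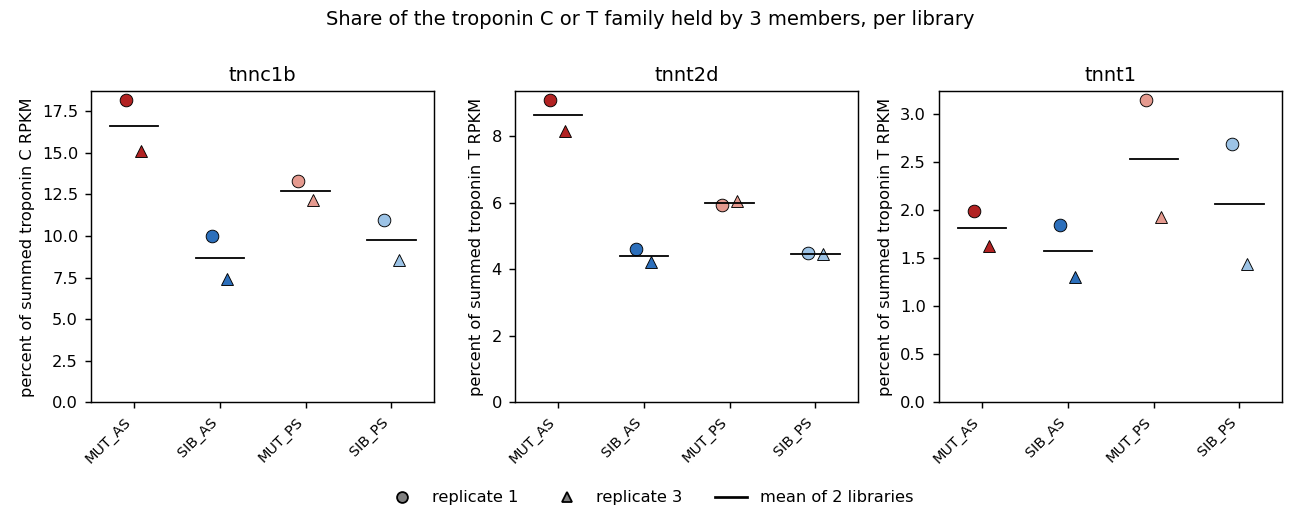
Share of summed troponin C RPKM held by tnnc1b, and of summed troponin T RPKM held by tnnt2d and tnnt1, in percent per library (circle replicate 1, triangle replicate 3, line the mean of the 2 libraries). tnnc1b and tnnt2d hold more in MUT_AS (means 16.6% and 8.63%) than in SIB_AS (8.70% and 4.41%), while tnnt1 overlaps between genotypes.

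The ratio of fast to slow form was taken within each library. tnnc2 was 4.48 and 5.63 times tnnc1b in MUT_AS and 9.0 and 12.5 times in SIB_AS, and 6.53 and 7.22 times in MUT_PS against 8.11 and 10.7 times in SIB_PS. Mutant libraries were below sibling libraries in both regions. In AS this follows from the levels above, since tnnc2 was lower and tnnc1b higher in both mutant libraries. In PS only tnnc1b lay apart, and 23.8% of all tested transcripts lay higher without overlap there. The sum of tnnt3a and tnnt3b was 44.2 and 54.8 times tnnt1 in MUT_AS and 50.4 and 72.1 times in SIB_AS, and 28.7 and 47.2 times in MUT_PS against 34.2 and 64.9 times in SIB_PS. This ratio overlapped between the genotypes in both regions, and among libraries with the same replicate number, which are not known to be paired, the mutant value was the lower each time. The same sum was 9.71 and 10.9 times tnnt2d in MUT_AS and 20.2 and 22.3 times in SIB_AS, and 15.2 and 15.1 times in MUT_PS against 20.6 and 21.0 times in SIB_PS. It was lower in every mutant library than in any sibling library. tnnt2d has no class, so this is not a ratio of fast to slow form. This ratio uses a gene already seen above to be higher in mutants, so its separation of the genotypes is no further result.

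The second question was how the genes differ along the trunk. In AS against PS, 7 of the 8 genes were lower in mutants and the same 7 were lower in siblings, all except tnnc1a. limma called 55% of all transcripts between regions in MUT and 51.2% in SIB, but only 10.9% (MUT) and 9.62% (SIB) as lower. The median log2 difference over all transcripts was 0.41 in MUT and 0.40 in SIB. The differences of these 7 genes had the opposite sign. With all libraries scaled to 1 median the share called lower was 23.3% in MUT and 21.6% in SIB, and the 7 genes lay between -2.39 and -1.44 in MUT and between -2.09 and -1.55 in SIB, all still called.

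Fast forms fell in AS by amounts close to each other. In MUT the log2 difference was -1.70 for tnnc2 (SE 0.18, limma adjusted p = 0.000132), -1.66 for tnnt3a (adjusted p = 0.000122) and -1.45 for tnnt3b (adjusted p = 0.000203). In SIB it was -1.23 for tnnc2 (SE 0.18, limma adjusted p = 0.000628), -1.32 for tnnt3a (0.000374) and -1.13 for tnnt3b (0.000837). In mean RPKM, AS held 0.307 to 0.366 of the PS level of these 3 genes in MUT and 0.401 to 0.454 in SIB.

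Slow forms and the unclassed troponin T genes fell as well. tnnc1b differed between AS and PS by -1.25 in MUT (SE 0.16, limma adjusted p = 0.000248) and -1.41 in SIB (0.000263). tnnt1 differed by -1.96 in MUT (SE 0.31, limma adjusted p = 0.000688) and -1.57 in SIB (0.00268). tnnt2e differed by -1.63 in MUT and -1.67 in SIB, and tnnt2d by -1.01 in MUT and -1.26 in SIB (limma adjusted p from 0.000544 to 0.000984 for these 4 values). Values of the comparisons in MUT and SIB differ by the interaction given above, which 0 genes passed. All 7 genes had AS libraries below both PS libraries in each genotype, against 17.5% of all transcripts in MUT and 20% in SIB.

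**Figure D4:**
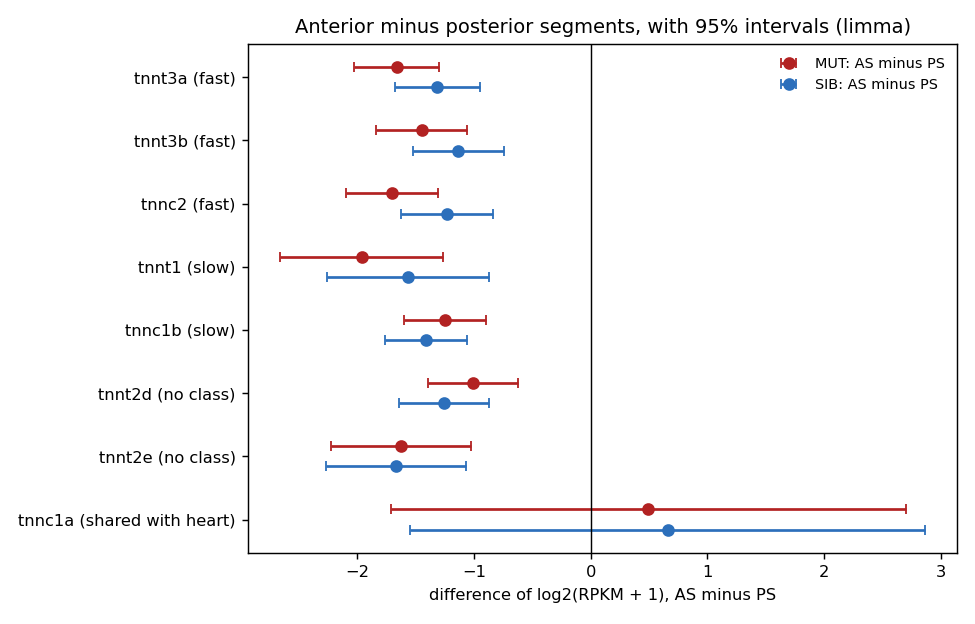
Difference of log2(RPKM + 1), AS minus PS, for each gene in MUT and in SIB, with 95% intervals from limma. All genes but tnnc1a lie below 0 in both genotypes, from -1.96 to -1.01 in MUT and from -1.67 to -1.13 in SIB.

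The gene tnnc1a, which encodes the troponin C of heart, followed none of these patterns. Its higher row had 5.29 RPKM in replicate 1 of MUT_AS and was listed at 0 in replicate 3. It had 2.38 and 0.340 in SIB_AS, 1.33 and 0.363 in MUT_PS and 0.433 and 0.265 in SIB_PS. Replicate 1 was above replicate 3 in every group. No comparison passed, and the 95% intervals were wide, from -1.97 to 2.45 for MUT_AS against SIB_AS. A second copy of the transcript stood at 2.17 and 0.895 RPKM in MUT_AS, 1.08 and 0.480 in SIB_AS, 0.829 and 0.285 in MUT_PS and 0.408 and 0.489 in SIB_PS, and was too low to be tested.

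Myocardial genes of the heart list were, like tnnc1a, higher in replicate 1 than in replicate 3 of MUT_AS, SIB_AS and MUT_PS, while the transcription factor genes hand2, tbx20 and gata4 were not in every group. The cardiac troponin T gene tnnt2a stood at 10.9 and 0 RPKM in MUT_AS, 5.94 and 0.0848 in SIB_AS, 5.33 and 0.302 in MUT_PS and 0.180 and 0.187 in SIB_PS. The 11 heart genes found in the table, of 13 listed, summed to 85.5 and 26.0 RPKM in MUT_AS, 61.2 and 21.9 in SIB_AS, 43.1 and 12.0 in MUT_PS and 12.0 and 9.62 in SIB_PS. In MUT_AS replicate 3 the myocardial genes myl7, nppa, vmhc, myh6, tnnt2a and cmlc1 were listed at 0. The troponin I gene tnni1b, also on the heart list, stood at 2.64 RPKM in that library and at 0.944 in SIB_AS replicate 3. The part of heart tissue in the values of tnnc1a was not tested. tnnt2d and tnnt2e, paralogs of tnnt2a, were higher in every PS library than in any AS library, as was every other member except tnnc1a.

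**Figure D5:**
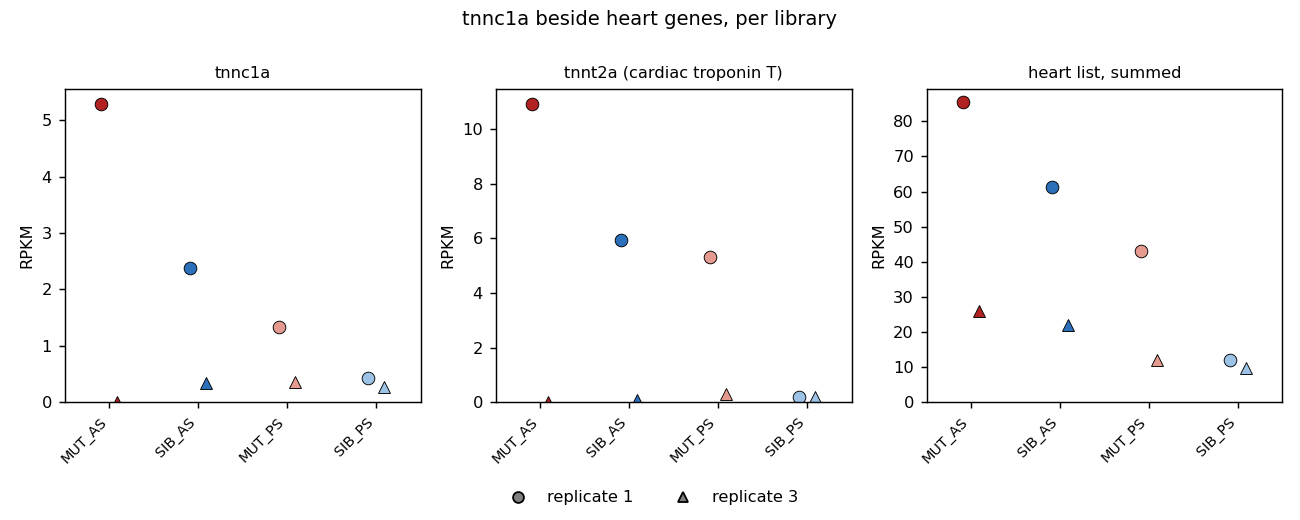
RPKM of tnnc1a, of tnnt2a and of the summed heart list in each library (circle replicate 1, triangle replicate 3, linear axes from 0). Replicate 1 is the higher in MUT_AS, SIB_AS and MUT_PS in all 3 panels, with tnnc1a at 5.29, 2.38 and 1.33 RPKM.

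Other genes of the thin filament gave the setting for these values. Of 36 genes that work beside troponin T and C (troponin I, tropomyosin, sarcomeric actin, nebulin, tropomodulin, leiomodin and their cofactors), 24 were tested. Between MUT_AS and SIB_AS 1 fell, 0 rose and 23 did not pass, and the median was -0.16 where that of all transcripts was 0.08. There limma called 0.0459% of all transcripts. The gene that fell was tnni2b.2, a troponin I of fast muscle (log2 difference -2.78, limma adjusted p = 0.00325). With regions averaged it was also the 1 gene that fell (-2.19, limma adjusted p = 0.00236), where limma called 0.0827% of all transcripts. Its mean was 9.24 RPKM in MUT_AS, 69.5 in SIB_AS, 5.78 in MUT_PS and 19.3 in SIB_PS. On average it was thus higher in AS than in PS in both genotypes, unlike every member except tnnc1a. These calls on tnni2b.2 were lost in a fit of the AS groups alone (limma adjusted p = 0.0551) and, with regions averaged, without SIB_PS replicate 1 (0.0638). In PS 0 of the 24 passed in limma, with a median of -0.08, and tnni2b.2 stood at -1.60 (limma adjusted p = 0.150). It passed there with a weight per group, in a fit of the PS groups alone and in both fits that left out 1 MUT_AS library. Between AS and PS 17 fell in MUT and 17 in SIB, while 2 and 3 rose. Of all transcripts, limma called 10.9% lower in MUT and 9.62% in SIB, out of 55% and 51.2% called in either direction. Those with the smallest p in MUT were the troponin I gene tnni2a.4 (-1.85), the tropomyosin gene tpma (-1.70) and the actin gene actc1b (-1.77), and in SIB tpm2 (-1.42), acta1b (-1.43) and tnni1c (-1.31).

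Most markers of fast muscle other than troponin had the sign of the fast troponins. Of 22 tested genes, 20 had a negative difference in MUT_AS against SIB_AS with a median of -0.58, and 0 passed in limma. Of all 10889 transcripts tested, 6760 had a positive difference there. Single markers ran from -1.30 for myhz1.2 to 0.47 for the parvalbumin gene pvalb4, and myhz2 stood at -0.04. For MUT_AS against SIB_AS, myhz1.2 stood at -1.14 without MUT_AS replicate 1 and at -1.46 without MUT_AS replicate 3. In PS 0 of the 22 passed in limma, with a list median of -0.16. There myhz1.2 passed with a weight per group, and myhz1.1 and myhz1.2 in a fit of the PS groups alone. Those fits called 17 and 99 of all transcripts instead of 0. With regions averaged the list median was -0.40, where that of all transcripts was 0.06 and limma called 0.0827% of them. There 1 marker passed, the fast myosin heavy chain myhz1.2 (-1.14, limma adjusted p = 0.0229). That call was lost without any 1 of the 6 libraries outside MUT_AS (limma adjusted p from 0.0689 to 0.228), under median scaling (0.0513) and with no filter (0.130). The fast list held 3.71% and 4.83% of all RPKM in MUT_AS, 6.05% and 7.99% in SIB_AS, 12.6% and 13.1% in MUT_PS and 13.9% and 16.6% in SIB_PS. Markers of slow muscle were split. Of 12 tested genes 6 were positive and 6 negative in MUT_AS against SIB_AS, with a median of -0.0042, and 0 passed in limma. The 6 genes with the sign of tnnc1b included the myosin light chain myl10 (0.60), the tropomyosins tpm2 (0.32) and tpm3 (0.24) and prox1a (0.31). The other positive ones were the myosin heavy chains smyhc2 (0.22) and smyhc1 (0.16). The 6 negative genes were casq2 (-0.52), actn2 (-0.37), myoz2a (-0.29), myoz2b (-0.23), ckmt2b (-0.19) and atp2a2a (-0.17). The slow list held 0.348% and 0.353% of all RPKM in MUT_AS and 0.301% and 0.295% in SIB_AS, and 0.801% and 0.706% in MUT_PS against 0.718% and 0.651% in SIB_PS. Both MUT_AS libraries were above both SIB_AS libraries, and the groups overlapped in PS. Between AS and PS all 22 fast markers fell in MUT and 21 fell in SIB, and 0 rose. Of the 12 slow markers, 9 fell in each genotype. In each genotype 1 slow marker rose, prox1a (1.41 in MUT and 1.32 in SIB). Of all transcripts, 10.9% were called lower in MUT and 9.62% in SIB, out of 55% and 51.2% called in either direction.

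Markers of other tissues also differed between the libraries, and their part in the troponin values was not tested. The 9 erythroid genes held 0.964% and 0.341% of RPKM in MUT_AS, 0.391% and 0.141% in SIB_AS, 1.54% and 0.498% in MUT_PS and 0.290% and 0.230% in SIB_PS, and none was at 0. The 7 skin genes in the table held 1.5% and 2.42% in MUT_AS, 1.3% and 1.74% in SIB_AS, 2.18% and 3.42% in MUT_PS and 2.22% and 2.46% in SIB_PS. The 7 neuronal genes held 0.119% and 0.109% in MUT_AS and 0.149% and 0.131% in SIB_AS, and at most 0.0438% in the PS libraries. The 4 smooth muscle genes in the table summed to 17.7 and 21.0 RPKM in MUT_AS, 13.8 and 13.5 in SIB_AS, 3.16 and 3.92 in MUT_PS and 3.07 and 2.16 in SIB_PS. All 9 erythroid genes were higher on average in both mutant groups than in SIB of the same region, with a median difference of 1.18 in AS and 1.77 in PS, and 0 of the 9 passed in limma. The 8 troponin genes themselves held 0.702% and 0.753% in MUT_AS, 1.02% and 1.18% in SIB_AS, 2.27% and 2.02% in MUT_PS and 2.28% and 2.72% in SIB_PS.

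The most abundant fast and slow members, tnnt3a and tnnc1b, were each set beside 5969 named transcripts whose mean reached 5 RPKM, clone names left out. Over the 8 libraries the values most like tnnt3a were those of murca, a muscle caveolae protein gene (Pearson r = 0.998), the tropomodulin gene tmod4 (0.998), the glycolytic enzyme gene pgam2 (0.997), the actin capping gene capza1b (0.996) and the fast myosin light chain gene myl1 (0.995). Those most like tnnc1b were hoxa9b (0.992), mybpc3 (0.992), myl10 (0.992), bin2a (0.989) and tpm2 (0.989). Among the members, tnnc2 (0.988) and tnnt3b (0.984) were closest to tnnt3a, and tnnt2d (0.983) was closest to tnnc1b. The gene tnnt1, classed as slow by its name, had r = 0.935 with tnnt3a and 0.907 with tnnc1b. tnnt3a and tnnc1b themselves had r = 0.847. These values describe 8 libraries that share the AS and PS contrast, and no test was made.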

How the data were processed

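The deposited table holds the authors' log2(RPKM + 1) value of each RefSeq transcript in the 8 libraries, per the file headers. Per the design text, reads were aligned with RUM to Zv9 (danRer7), each read going to 1 transcript; versions and read counts are not given in the sources used here, so depth is unknown. Of 14809 rows, 228 fill rows were dropped. No coordinates are given, since the reference table is of another build (GRCz12tu); it served for symbols and matched 13710 of 14581 transcripts.

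The 10889 transcripts whose mean reached 1 RPKM went into limma 3.58.1 (R 4.3.3, statmod 1.5.0), with 1 mean per group, trend and robust moderation and Benjamini-Hochberg adjustment over all transcripts. Standard errors and intervals assume 1 spread per transcript in all groups. Differences are on the log2(RPKM + 1) scale and understate those of low genes. How reads that match several troponin paralogs or isoforms were assigned is not stated there. All 8 members are named. Each is 1 row, the highest of its symbol. Of list genes, called members with the smallest p are named, and the uncalled list genes given with values were chosen after those were seen. A transcript that 2 symbols of a list matched was counted once. The members, classes and lists were chosen with earlier results of these data known.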

Additional observations from a re-analysis of the deposited data

How the results depend on the processing

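The 7 calls between AS and PS held in both genotypes under median scaling, a pseudocount of 0.1, no filter, a weight per group, a replicate block, a fit of the compared groups alone, the mean over rows of a symbol and every fit without 1 library. In the genotype comparisons 0 members were called under these settings, except without MUT_AS replicate 1, where the count was 2 in AS and 2 with regions averaged (0 to 2 over the 8 fits without a library); the cause was not tested. Over all members and comparisons, 317 of 320 values kept sign and call under the other settings and 355 of 384 without a library. The sign of tnnc1a turned with a pseudocount of 0.1 (-0.51 for MUT_AS against SIB_AS, -0.15 for AS against PS in MUT) and, in the interaction, with the mean over rows (0.17). Signs also turned without single libraries for 4 genes that were not called there. For MUT_AS against SIB_AS the ranges were -0.20 to 0.50 for tnnt2e and -1.09 to 1.56 for tnnc1a. For MUT_PS against SIB_PS they were -0.34 to 0.55 for tnnt1, -0.24 to 0.0059 for tnnc2 and -0.0074 to 0.22 for tnnt2e. For AS against PS tnnc1a ran from -0.83 to 1.82 in MUT and -0.0069 to 1.33 in SIB. With regions averaged they were -0.31 to 0.13 for tnnt1, -0.0446 to 0.30 for tnnt2e and -0.34 to 0.98 for tnnc1a. In the interaction they were -0.84 to 0.0474 for tnnt1, -0.30 to 0.39 for tnnt2e and -1.49 to 1.16 for tnnc1a. Fits without 1 library leave a group with 1 library, assumed to vary like the others.

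Replicate numbers pair libraries by title only. Differences between replicates 1 and 3 correlated across transcripts by -0.09 to 0.52 between groups. With the replicate block 0 members were called between genotypes in either region and 7 between AS and PS in each genotype; over all transcripts the calls were 7 instead of 5 for MUT_AS against SIB_AS and 19 instead of 9 with regions averaged. The block also brought the fast marker myhz1.2 past the threshold for MUT_AS against SIB_AS, so that 1 of the 22 fast markers was called instead of 0. Its limma adjusted p was 0.0178, against 0.0946 without the block and 0.415 in a fit of the AS groups alone. Fits without replicate 1 or without replicate 3 of MUT_AS also called fast markers there. Both called myhz1.1, myhz1.2 and mylpfb among others, but each left 1 library in that group. Limits: each group has 2 libraries, the table gives no read counts, and values near 0 in MUT_AS replicate 3, such as that of tnnc1a, cannot be told from no detection. Over all transcripts the calls for MUT_PS against SIB_PS were 0 in the fit reported, 17 with a weight per group and 99 in a fit of the compared groups alone. For MUT_AS against SIB_AS they were 5, with 3 under no filter or a weight per group, 0 with the compared groups alone, 1105 without MUT_AS replicate 1 and 78 without MUT_AS replicate 3. With regions averaged they were 9, with 5 under median scaling, 2 under no filter, 720 without MUT_AS replicate 1 and 69 without MUT_AS replicate 3. For the interaction they were 0, with 199 without MUT_AS replicate 1 and 11 without MUT_AS replicate 3.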

Other observations

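The ratio of the fast troponin T paralogs was also taken in each library, with the levels known. tnnt3a was 1.17 and 1.13 times tnnt3b in MUT_AS replicates 1 and 3 and 1.08 and 0.976 times in SIB_AS, and 1.40 and 1.26 times in MUT_PS against 1.23 and 1.11 times in SIB_PS. The ratio was higher in both mutant libraries than in both sibling libraries of a region. The margins were narrow, 1.13 against 1.08 in AS and 1.26 against 1.23 in PS. In all 4 groups replicate 1 had the higher ratio. It uses only the higher row of tnnt3b, so which paralog was the more abundant as a whole cannot be told. No test was made.

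Summed over their members, with only the highest row of each gene, the 2 families kept a near constant proportion. Troponin T RPKM was 2.05 and 1.70 times troponin C RPKM in MUT_AS, 2.06 and 1.83 times in SIB_AS, 1.80 and 1.69 times in MUT_PS and 1.90 and 1.96 times in SIB_PS. The summed troponin T level itself was 2560 and 2222 RPKM in MUT_AS, 3196 and 3623 in SIB_AS, 7397 and 6487 in MUT_PS and 7395 and 8750 in SIB_PS.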
